A study of Populus tremula x Populus alba with 20 samples.

Results

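Described here are the shoot-tip buds of a hybrid poplar, Populus tremula x Populus alba, after 8 weeks of short days and no chilling, the harvest called SD8. The 8 libraries of plants that overexpress a TEMPRANILLO-like protein were taken as 1 group and set against the 2 wild-type (WT) libraries, which makes 10 of the 20 libraries of the series. The 8 libraries come from 4 transgenic lines with 2 replicates each: TEML1_1ox and TEML1_2ox, which overexpress the first protein (TEML1), and TEML2_1ox and TEML2_2ox, which overexpress the second (TEML2). The comparison was repeated without the 2 TEML2_2ox libraries, with 6 overexpressor libraries against the same 2 of WT. All plants were propagated in vitro, potted and grown at 22 °C in long days before the short days began. The labels give these long days as 4 weeks in one place and 6 in another. The other 10 libraries come from the same lines and WT after 2 more weeks of short days at 4 °C (CH2), and are used to read the SD8 genes in separate libraries. Polyadenylated RNA was sequenced from pooled buds, cut 7 h after lights-on, and the labels put 2 plants in a replicate where the series text puts 3 buds. No source used here gives the promoter of the transgenes or says how each line arose. All plants derive from 1 poplar clone, and no group carries a transgene without these proteins, so the presence of a transgene and the protein it makes cannot be told apart.

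TEMPRANILLO proteins are plant transcription factors. In Arabidopsis they delay flowering by repressing the florigen gene FT and genes of gibberellin synthesis. In poplar, relatives of FT and gibberellins act in the response to day length: short days lead to growth arrest and bud set, the closed bud enters dormancy, and a period of cold releases it. The SD8 comparison therefore asks what overexpression changes in the set bud before any cold.

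The files give gene identifiers without names, and no table that pairs them was used here. Genes are therefore named by identifier, no pathway list or tissue marker could be read, and the levels of the overexpressed genes themselves could not be checked by name. At SD8 the total per library ran from 35779227 to 38972077 counts, and genes with at least 10 counts numbered 25834 to 26393 in the overexpressors and 25878 to 26005 in WT. In these bulk samples, fewer cells of a type and less RNA per cell cannot be told apart. TEML2_2ox stood apart from the other lines at SD8, so the pooled comparison was made with and without it.

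With the 8 libraries taken as 1 group, edgeR called few differences from WT, and the count depended on the model. In the pooled comparison 1 of 26947 genes passed the threshold (edgeR quasi-likelihood test, Benjamini-Hochberg adjusted p under 0.05), which is 0.00371% of those tested. That gene, PtXaAlbH.01G328000.v5.1, was lower in the overexpressors. Without TEML2_2ox, edgeR called 0 of 26639 genes (0%). At an unadjusted p under 0.05 edgeR had 2669 genes in the pooled comparison (9.9% of those tested), 1390 of them higher. Without TEML2_2ox it had 2260 (8.48%), 1170 of them higher. DESeq2, run on every gene with a count, called 103 of 30063 genes with all lines (65 higher and 38 lower). Without TEML2_2ox it called 156 of 29789 (89 higher and 67 lower). Limma-voom, on as many genes as edgeR, called 4 and 5 genes, each of them lower. An edgeR fit with lines as separate groups, testing their mean against WT, called 508 of 26947 genes with all lines (239 higher and 269 lower). That fit called 14 of 26639 without TEML2_2ox (7 higher and 7 lower). Its error is the spread between replicates of a line, so its p-values do not cover differences between lines. With counts summed per line edgeR called 0 genes with all lines and 0 without TEML2_2ox. Limma-voom with line as random block called 0 and 4. Neither protein was tested on its own against WT. The plot of fold change against p shows the lone called gene and the same scatter without it.

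**Figure D1:**
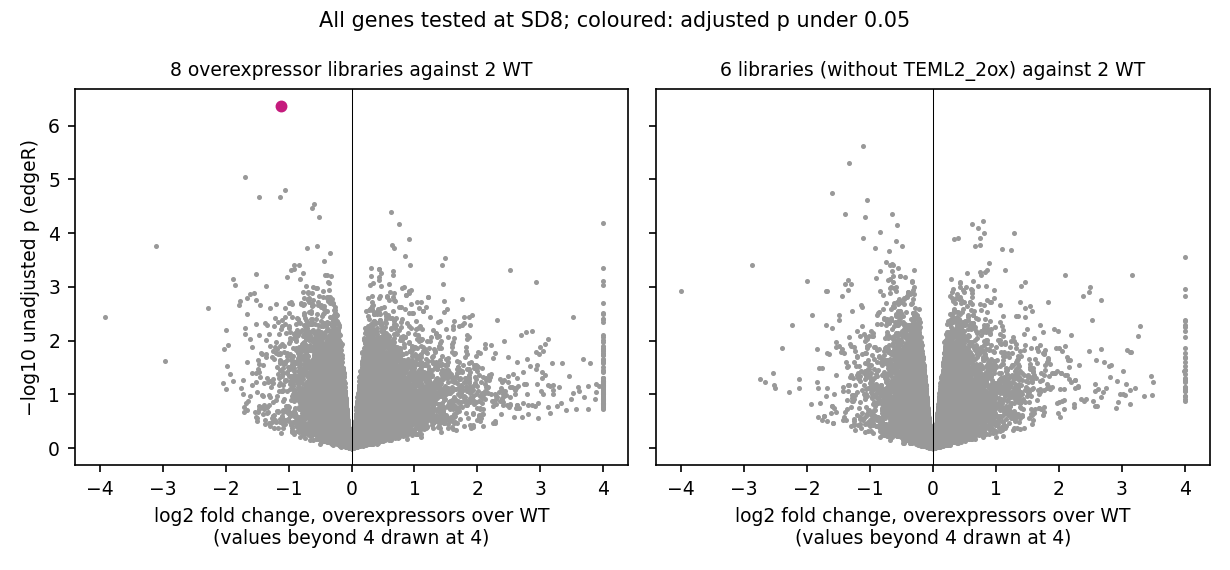
Each point is 1 gene tested at SD8, with its log2 fold change of overexpressors over WT on the x axis and −log10 of its unadjusted edgeR p on the y axis. With all 4 lines (left) 1 gene, coloured, passed an adjusted p under 0.05; without TEML2_2ox (right) 0 genes passed.

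PtXaAlbH.01G328000.v5.1 stood at 41.1 and 30.9 CPM (the read count normalised to library size, scaled by TMM) in the 2 WT libraries. The 8 overexpressor libraries ran from 14.3 to 18.8 CPM with a median of 16.6, so the groups did not overlap. The line means lay within a narrow range, at 16.5 ± 0.992 CPM (SD, n = 2) for TEML1_1ox, 16.9 ± 1.65 for TEML1_2ox, 16.5 ± 3.22 for TEML2_1ox and 16.6 ± 0.454 for TEML2_2ox. The fitted level in the overexpressors was 46.2% of that in WT. The log2 fold change was -1.11 ± 0.11 (SE, 95% interval -1.35 to -0.88, edgeR adjusted p = 0.0117). Limma-voom called this gene with all lines (adjusted p = 0.013) and without TEML2_2ox (0.0343), as did DESeq2 (adjusted p of 7.89e-13 and 2.54e-10). So did edgeR with lines as separate groups (adjusted p of 0.00249 and 0.032) and in a fit of both harvests (6.09e-06 and 0.000392). With line as random block, limma-voom called it only without TEML2_2ox (adjusted p = 0.0466). In the pooled fit without TEML2_2ox the log2 fold change was -1.11 ± 0.12 and the edgeR adjusted p 0.063, so the call was lost while the value stayed. The call also did not pass without WT replicate 1 (log2 fold change -0.89, edgeR adjusted p = 0.271), without TEML1_1ox replicate 1 (0.0506), without the line TEML1_1ox (0.212) or TEML1_2ox (0.0533), in limma-voom with line as random block (0.147) or with each line summed to 1 sample (edgeR adjusted p = 0.439).

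The same gene did not show this difference after chilling. At CH2 it stood at 84.9 and 80.9 CPM in WT and at 66.02 to 84.6 in the 8 overexpressor libraries, so the groups overlapped and all libraries were above every SD8 library. The log2 fold change at CH2 was -0.15 ± 0.08 (SE, edgeR adjusted p = 0.286). The SD8 effect minus the CH2 effect was -0.97 ± 0.14 on the log2 scale (edgeR adjusted p = 0.0129), and -0.94 ± 0.16 without TEML2_2ox (edgeR adjusted p = 0.0273). That test of the difference, chosen after seeing the data, passed at 0.366% of 27337 genes with all lines and at 0.163% of 27064 without TEML2_2ox. The gene was named for its SD8 values, which enter that test, so the choice favours a larger effect at SD8. The harvests came as separate tables, so chilling, 2 further weeks and any difference in preparation cannot be told apart.

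The next genes did not pass the threshold in the pooled comparison and are given as values, chosen by the smallest p in each direction. PtXaAlbH.14G014600.v5.1 stood at 61.9 and 67.3 CPM in WT and at 14.5 to 32.1 in the overexpressors (median 17.8). Its groups did not overlap, and the highest overexpressor library was TEML1_2ox replicate 2, whose fellow replicate was at 18.4 CPM. The log2 fold change was -1.69 ± 0.22 (SE, edgeR adjusted p = 0.114), and -1.60 ± 0.22 without TEML2_2ox (edgeR adjusted p = 0.159). The call passed without TEML1_2ox replicate 2 (log2 fold change -1.82, edgeR adjusted p = 0.00677), without the line TEML1_2ox (0.0367), in limma-voom (0.0283), in the fit of both harvests (edgeR adjusted p = 0.0114), with lines as separate groups (edgeR adjusted p = 0.000696) and in DESeq2 (adjusted p = 2.45e-07).

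PtXaAlbH.01G196500.v5.1, named by the comparison without TEML2_2ox, stood at 113 and 102 CPM in WT. The 6 libraries of the other 3 lines ran from 30.9 to 50.4 CPM (median 44.7) and those of TEML2_2ox were at 27.6 and 27.2, below all of them. Its log2 fold change was -1.47 ± 0.21 with all lines (SE, edgeR adjusted p = 0.114) and -1.34 ± 0.16 without TEML2_2ox (edgeR adjusted p = 0.0671). The 4 lines differed in its level (edgeR test among lines, adjusted p = 0.000844), so here the lines shared a direction but not a size. Limma-voom, with and without line as random block, put this gene past the threshold without TEML2_2ox (adjusted p of 0.0466 and 0.0391), and so did the fit of both harvests (edgeR adjusted p = 0.00923) and the fit without TEML1_2ox replicate 1 (edgeR adjusted p = 0.0422). The fit with lines as separate groups (edgeR adjusted p = 0.000263) and DESeq2 (adjusted p = 3.19e-10) called it too.

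Among genes higher in the overexpressors, none passed in the pooled edgeR fits, in limma-voom or in the fit of both harvests, and the 2 with the smallest p were the same in both. DESeq2, which called 65 and 89 higher genes, called both of these. With lines as separate groups both passed with all lines (edgeR adjusted p of 0.0203 for PtXaAlbH.10G148200.v5.1 and 0.0108 for PtXaAlbH.05G105900.v5.1) and neither without TEML2_2ox (0.106 and 0.0709). PtXaAlbH.10G148200.v5.1 stood at 12.0 and 11.5 CPM in WT and at 16.01 to 19.6 in the overexpressors (median 17.9). PtXaAlbH.05G105900.v5.1 stood at 19.04 and 18.0 CPM in WT and at 27.4 to 36.9 in the overexpressors (median 29.6). Neither gene had overlapping groups, and both were set apart by less than 2-fold. PtXaAlbH.10G148200.v5.1 differed from WT by 0.62 ± 0.10 on the log2 scale (SE, edgeR adjusted p = 0.137), and by 0.62 ± 0.10 without TEML2_2ox (0.187). PtXaAlbH.05G105900.v5.1 differed by 0.76 ± 0.12 (edgeR adjusted p = 0.165), and by 0.80 ± 0.12 without TEML2_2ox (0.187).

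At CH2 these 4 genes no longer separated the groups. PtXaAlbH.14G014600.v5.1 was at 80.01 and 110 CPM in WT with a log2 fold change of -0.18 ± 0.26, and PtXaAlbH.01G196500.v5.1 was at 56.5 and 55.1 CPM with one of -0.35 ± 0.17 (SE, edgeR adjusted p of 0.737 and 0.247). PtXaAlbH.10G148200.v5.1 was at -0.09 ± 0.13 on that scale and PtXaAlbH.05G105900.v5.1 at -0.21 ± 0.32 (edgeR adjusted p of 0.749 and 0.745). The tests of the difference between harvests gave edgeR adjusted p of 0.0645 to 0.215 for the 4 genes, so a change of the effect with harvest was not called for them. The plot of CPM by library sets the SD8 values of the 5 genes beside those of CH2.

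**Figure D2:**
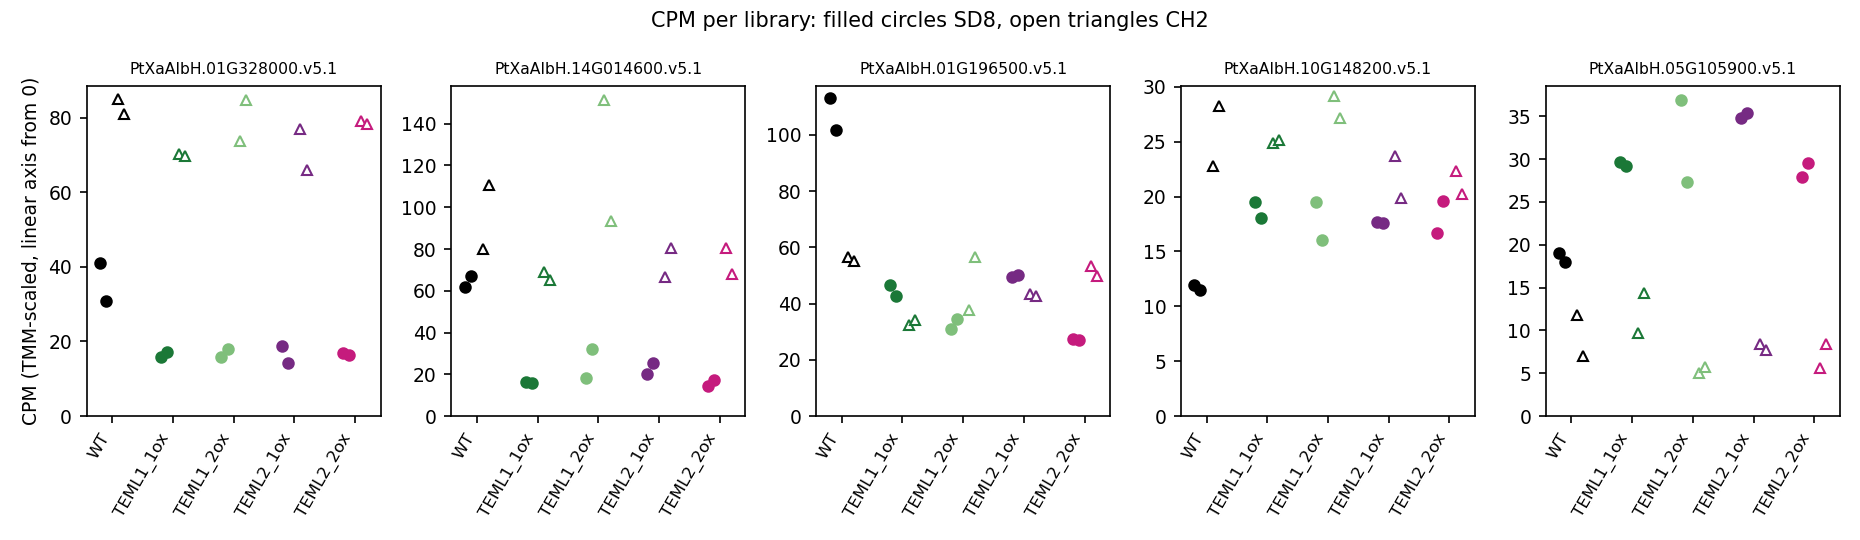
CPM of 5 genes in each library, by line on the x axis, on linear axes from 0, with filled circles for SD8 and open triangles for CH2, 2 libraries per line and harvest. At SD8 the WT circles lie above all 8 overexpressor circles in the first 3 genes and below them in the last 2, and at CH2 the triangles of WT fall among or near those of the lines.

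For most genes the SD8 data also bounded how far the mean of the pooled overexpressors could lie from WT. These bounds count the libraries of a line as independent and do not hold for each line on its own. Genes with a mean of at least 1 on the log2 CPM scale numbered 22296, and for 89.6% of them the 95% interval of the fold change, unadjusted, lay within 2-fold in either direction. Without TEML2_2ox this held for 94.5% of 22142 genes. The median absolute log2 fold change over all genes tested was 0.14, beside a median SE of 0.15, and 0.12 beside 0.13 without TEML2_2ox. Genes under that level were less bounded: their median SE was 0.49 in the pooled comparison, against 0.09 at a mean log2 CPM of 5 to 7.

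Most differences of 2-fold or more were those of TEML2_2ox alone. Of the 22296 genes, 283 were higher and 37 lower by 2-fold or more in the pooled fit, and without TEML2_2ox these were 107 and 30 of 22142. Taking each line's mean log2 CPM against that of WT, 1206 genes were 2-fold higher in at least 1 line, and 865 of these in TEML2_2ox alone. Another 458 were 2-fold lower in at least 1 line, 322 of them in TEML2_2ox alone. Only 15 genes were 2-fold higher and 10 were 2-fold lower in all 4 lines, and 18 and 13 in all 3 lines other than TEML2_2ox. The line values share the same 2 WT libraries, so these counts are a description.

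Separation of the groups without a test was more common than calls. In the pooled comparison all 8 overexpressor libraries lay above both WT libraries at 1203 genes, 4.46% of those tested, and below both at 1247, or 4.63%. Without TEML2_2ox these were 1554 genes (5.83%) and 1500 (5.63%). Of the 45 ways to choose 2 of 10 libraries 1 gives each pattern, and of the 28 ways to choose 2 of 8 also 1. The shares with and without TEML2_2ox are therefore not on the same footing. Neither 1 in 45 nor 1 in 28 is a chance share here, because replicates of a line or of WT are not exchangeable with other libraries. Among the most abundant genes, with a mean log2 CPM of 7 or more, the split was uneven: without TEML2_2ox 172 of 1189 were higher with no overlap and 52 lower, against 125 and 42 of 1193 with all lines. The median log2 fold change in that class was 0.02 without TEML2_2ox, where 56.3% of its genes were above 0, and 0.00 with all lines. It was the most uneven of the abundance classes. With all lines every lower class had fewer genes higher than lower, such as 404 against 454 at 3 to 5. Without TEML2_2ox the class of 5 to 7 had 483 higher and 445 lower, and the classes below it had fewer higher than lower.

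The share of counts held by the most abundant genes also set TEML2_2ox apart. The 100 highest genes took 14.5% and 14.6% of the counts in WT, 16.1 to 18.04% in the 6 libraries of TEML1_1ox, TEML1_2ox and TEML2_1ox, and 12.9 and 13.3% in TEML2_2ox. Without TEML2_2ox the difference from WT was 2.625 percentage points (2-sided exact permutation test, p = 0.0357, the smallest p that 28 assignments can give, and 0.214 adjusted over 6 tests). The highest gene of each library alone held 2.96 and 3.22% of the counts in WT, 4.4 to 5.39% in these 6 libraries and 2.48 and 2.74% in TEML2_2ox, so a large part of the difference lay in 1 gene per library. With TEML2_2ox it was 1.61 percentage points (2-sided exact permutation test over 45 assignments, p = 0.311). The number of genes with at least 10 counts differed by 117 with all lines and by 6.67 without TEML2_2ox (2-sided exact permutation p of 0.578 and 0.929). The 6 tests were on totals, detected genes and this share, and the p-values of this paragraph are otherwise unadjusted. These tests permute single libraries and so count the replicates of a line as independent.

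No gene was silent in WT and present in every overexpressor library. Genes with 0 counts in both WT libraries and at least 10 in each of the 8 overexpressor libraries numbered 0, and so did genes with the reverse pattern. Without TEML2_2ox 1 gene had at least 10 counts in both WT libraries and 0 in the other 6. It was PtXaAlbH.01G038800.v5.1, chosen after its values were seen, with 12 and 18 counts in WT at SD8 and 7 and 0 in TEML2_2ox. At CH2 it was at 0 counts in WT replicate 2 and in TEML2_1ox replicate 2 and at 15 to 40 counts in the other 8 libraries, so its absence did not follow the genotype.

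The pooled group was itself heterogeneous, and TEML2_2ox made most of that. Among the 8 overexpressor libraries, with WT out of the fit, 3728 of 26824 genes (13.9%) differed among the 4 lines (edgeR, adjusted p under 0.05). Without TEML2_2ox 24 of 26451 genes (0.0907%) differed among the other 3. Set directly against those 3 lines, TEML2_2ox differed at 3767 genes (14% of 26824), 2276 higher and 1491 lower. Of the 3728 genes, TEML2_2ox was the line farthest from the median of the others at 77.1%, against 45.3% over all genes tested. The count among the 4 lines fell to 670 or 897 when TEML2_2ox replicate 1 or 2 was left out to 2383 without TEML2_1ox replicate 2, and rose to 5682 or 6562 without TEML1_2ox replicate 1 or 2. The count among the 3 lines ran from 7 to 783 with a library left out, the highest without TEML1_2ox replicate 2, and it was 7 or 8 without either TEML2_1ox replicate or TEML1_1ox replicate 1 and 129 without TEML1_2ox replicate 1.

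Distances between libraries set TEML2_2ox apart from most others. The root mean square difference in log2 CPM over the 22296 genes ran from 0.282 to 0.503 (median 0.335) between WT libraries and those of the 3 other lines. Libraries of different lines among those 3 were 0.278 to 0.411 apart (median 0.376), and these distances overlapped those to WT. Replicates of 1 line, WT included, were 0.276 to 0.340 apart, except for 0.197 in TEML2_2ox, whose replicates were the closest pair. Pairs of TEML2_2ox with WT were 0.515 to 0.660 apart, and those with the other overexpressor lines 0.322 to 0.566 (median 0.535). TEML1_1ox replicate 1 was the exception, at 0.341 and 0.322 from TEML2_2ox and 0.392 to 0.411 from the libraries of TEML1_2ox and TEML2_1ox. The biological coefficient of variation was 0.2 in the pooled fit, 0.153 without TEML2_2ox and 0.113 with each overexpressor line as its own group.

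**Figure D3:**
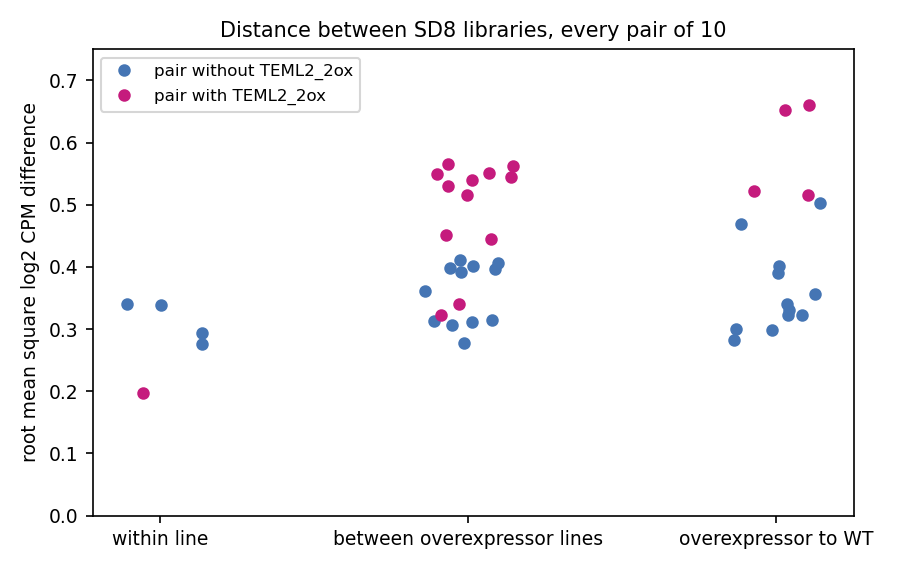
Root mean square difference in log2 CPM between every pair of the 10 SD8 libraries, grouped on the x axis by whether the pair is within a line, between overexpressor lines or between an overexpressor and WT. Pairs without TEML2_2ox overlap across the 3 kinds, and pairs of TEML2_2ox with WT lie at 0.515 or more.

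The genes with the smallest p among the lines were chosen by that test, and their values are a description. Whether any of them is a transgene could not be read from the identifiers. PtXaAlbH.08G098800.v5.1 had the smallest p among the 4 lines (edgeR adjusted p = 3.74e-08). It stood at 38.8 and 26.4 CPM in WT, at 19.0 to 23.6 in the 4 TEML1 libraries, at 111 and 119 in TEML2_1ox and at 251 and 250.3 in TEML2_2ox. PtXaAlbH.10G102000.v5.1 was next (edgeR adjusted p = 4.37e-07). Its levels were 127 to 143 CPM in the 4 TEML1 libraries, 40.4 and 16.4 in WT, 22.7 and 29.0 in TEML2_1ox and 10.3 and 10.1 in TEML2_2ox. At CH2 it stood at 135 and 155 CPM in WT, 124 to 172 in the TEML2 libraries and 241 to 334 in the TEML1 libraries. At SD8 each stood above WT in the lines of 1 construct, and neither was called in the pooled comparison, where their log2 fold changes were 1.64 ± 1.11 and 1.42 ± 1.07 (SE, edgeR adjusted p of 0.582 and 0.615).

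PtXaAlbH.05G119000.v5.1 belonged to 1 line. It had 0 counts in both WT and all 4 TEML1 libraries, 19.7 and 18.9 CPM in TEML2_1ox, and 0.0491 and 0 CPM in TEML2_2ox (edgeR adjusted p among the 3 lines = 0.000461). It was again at 8.00 and 7.34 CPM in TEML2_1ox at CH2, with the other 8 libraries at 0.0795 CPM or less. A level that is high in 1 line and near 0 elsewhere cannot be read from the pooled fold change, which is not given.

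**Figure D4:**
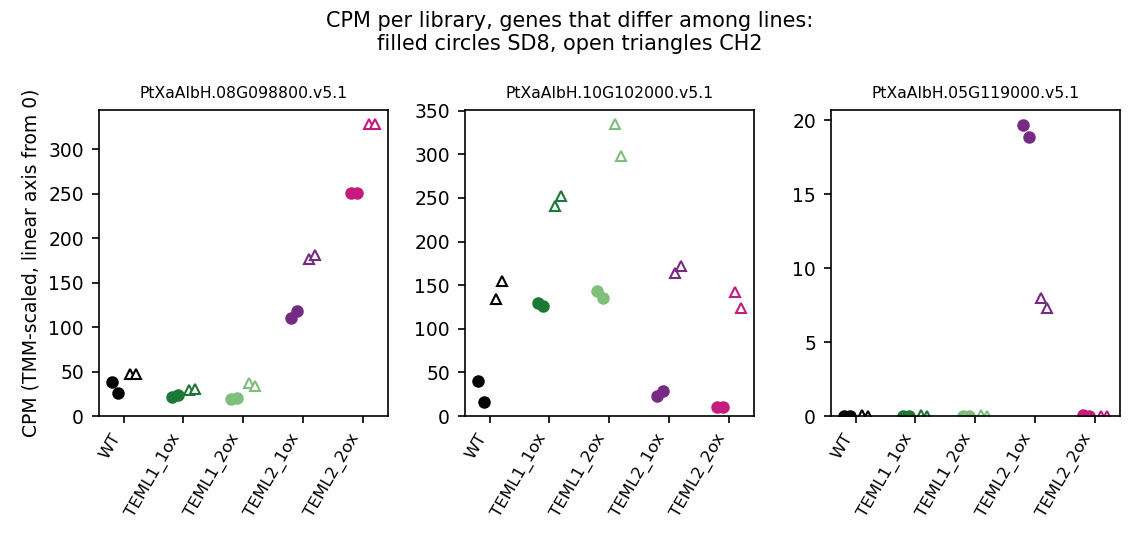
CPM per library of the 3 genes with the smallest p for a difference among lines, by line on the x axis, on linear axes from 0, with filled circles for SD8 and open triangles for CH2. Within each harvest the first gene is highest in both TEML2 lines, the second in both TEML1 lines and the third in TEML2_1ox. For the second gene WT stands at 135 and 155 CPM at CH2, near the TEML1 libraries of SD8.

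The CH2 libraries, of the same lines and WT, show how much of the SD8 ranking was seen again. At CH2 the pooled overexpressors differed from WT at 1358 of 25696 genes (5.28%), 788 higher and 570 lower. It fell to 14 genes when WT replicate 1 was left out and to 18 when replicate 2 was. The count was 321 without TEML2_2ox, and 675, 828 or 867 without TEML2_2ox replicate 2, TEML2_2ox replicate 1 or TEML1_2ox replicate 2. Of the 517 genes with an unadjusted p under 0.01 at SD8 that were also tested at CH2, 295 (57.1%) had the same direction at both harvests, against 53.4% of all 25371 genes tested in both. Of these 517, 33 (6.38%) were called at CH2, against 5.34% of all, and 29 of the 33 kept their SD8 direction while 4 were opposite. Over all genes called at CH2 and tested at both harvests, 719 had the SD8 direction and 637 the opposite one. Without TEML2_2ox 295 of 479 such genes (61.6%) had the same direction at both harvests, against 51% of all 25212. Of these 479, 12 (2.51%) were called at CH2, 10 in the SD8 direction, against 1.27% of all. The median absolute log2 fold change of the 517 genes was 0.56 at SD8 and 0.18 at CH2, beside 0.14 and 0.15 over all genes tested in both. The 517 genes were chosen by their SD8 p, which by itself favours a larger value at SD8.

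**Figure D5:**
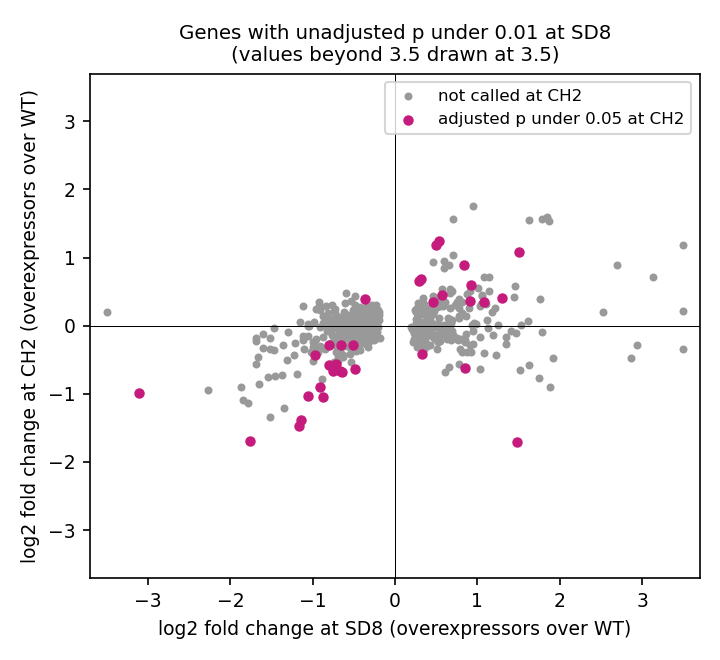
Log2 fold change of pooled overexpressors over WT at SD8 (x axis) and CH2 (y axis) for the 517 genes with an unadjusted p under 0.01 at SD8 that were tested at both harvests. Coloured points are the 33 called at CH2, of which 29 lie in the quadrants of equal direction.

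The 4 genes named from the CH2 comparison, chosen among genes of mean log2 CPM 1 or more whose groups did not overlap there, were not called at SD8. PtXaAlbH.19G011300.v5.1, lower in the overexpressors at CH2 by -2.87 ± 0.31 on the log2 scale (SE, edgeR adjusted p = 0.00137), stood at SD8 at 4.36 and 4.01 CPM in WT and at 0.704 to 3.62 in the overexpressors (median 1.87). The groups did not overlap at SD8, with TEML2_2ox nearest to WT at 3.24 and 3.62 CPM, and the fitted SD8 level was 49.9% of WT (edgeR adjusted p = 0.501), and 39.2% without TEML2_2ox (edgeR adjusted p = 0.36). There TEML2_2ox exceeded the other 3 lines by 1.07 ± 0.31 on the log2 scale (edgeR adjusted p = 0.0452). PtXaAlbH.04G069800.v5.1, higher at CH2 by 1.24 ± 0.24 (SE, edgeR adjusted p = 0.0158), also had no overlap at SD8, with 50.5 and 47.6 CPM in WT and 60.6 to 87.4 in the overexpressors (median 69.2). Its SD8 difference was 0.53 ± 0.14 on the log2 scale (SE, edgeR adjusted p = 0.457), and 0.43 ± 0.09 without TEML2_2ox (edgeR adjusted p = 0.36).

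The other 2 genes named at CH2 overlapped at SD8. PtXaAlbH.13G001500.v5.1, lower at CH2 by -2.02 ± 0.29 (SE, edgeR adjusted p = 0.00437), stood at 2.99 and 1.81 CPM in WT and at 0.785 to 2.37 in the overexpressors at SD8. PtXaAlbH.04G014200.v5.1, higher at CH2 by 1.20 ± 0.24 (SE, edgeR adjusted p = 0.0169), stood at SD8 at 59.3 and 97.6 CPM in WT and at 68.7 to 112 in the overexpressors. For all 4 genes the difference between the harvests' effects missed the threshold (edgeR adjusted p of 0.142 to 0.235). Of the 4 CH2 calls, 2 were lost without TEML2_2ox, those of PtXaAlbH.04G069800.v5.1 (0.0553) and PtXaAlbH.04G014200.v5.1 (0.0606). The same calls were lost in limma-voom with line as random block (adjusted p of 0.0671 and 0.0809). Without WT replicate 1 or 2 all but PtXaAlbH.19G011300.v5.1 were lost (edgeR adjusted p of 0.0758 to 0.196).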

How the data were processed

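The authors deposited raw read counts for 31823 genes, whole numbers in 1 table per harvest, per the file headers. The submitters' processing notes name HISAT2 without a version. No source used here gives the counting program, genome build, strand setting or filters, and reads of near-identical or overlapping genes may be split in unknown ways. Per the labels, 1 WT column at SD8 carries an extra digit and was taken as WT replicate 1, the only sample it matched.

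The tests used edgeR 4.0.16 (R 4.3.3), with filterByExpr, TMM scaling and glmQLFTest. P-values were adjusted by Benjamini-Hochberg over all genes tested, at a threshold of 0.05. Each SE is approximate, the absolute log2 fold change divided by the root of F. Libraries of a line counted as independent in the pooled fits and the exact permutation tests, although a line gives 2. The p-values measure only the spread between these samples. The pooled fits at SD8 and CH2, the fits among lines and the exact permutation tests are as in the text. The edgeR functions were tested on simulated counts. These were drawn from the model that edgeR assumes, for the pooled fits without differences between lines, so they do not check the pooling. Limma 3.58.1 and DESeq2 1.42.0 were alternatives, beside RLE scaling, other count filters (none, or 50 counts in 2 libraries), line models, single libraries or lines left out and an adjusted p under 0.01. The tests between harvests and of TEML2_2ox against the other lines were added after seeing the data.

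Replicates of a line differed by more than sampling noise (chi-square per degree of freedom 7.46 to 29.6 over genes with at least 20 counts). The labels share replicate numbers across groups but do not say that a number marks a batch. The rule for named genes takes, per comparison, up to 2 called genes per direction, ranked by log2 fold change, whose groups do not overlap and whose mean log2 CPM is 1 or more. Free places go to the smallest p and are described as not called. For lines it takes the 2 smallest p. The comparisons, lists and rules were chosen with earlier results of these data known. The lists of pathway genes and markers match on names and were not used, for want of names.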

Additional observations from a re-analysis of the deposited data

Results flagged for a closer look

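A difference between harvests passed the threshold at a named gene. The SD8 effect of PtXaAlbH.01G328000.v5.1 differed from its CH2 effect by -0.97 on the log2 scale (edgeR adjusted p = 0.0129). The gene was named for its SD8 values, which enter this test, so the choice favours a larger effect at SD8. The test was added after seeing the data and called 0.366% of 27337 genes.

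At 5 of the 12 named genes TEML2_2ox differed from the other 3 overexpressor lines at SD8 in the direct test, which called 14% of all genes tested. PtXaAlbH.08G098800.v5.1 and PtXaAlbH.10G102000.v5.1 were named for their difference among lines. PtXaAlbH.01G196500.v5.1 was at -0.63 ± 0.17 on the log2 scale (SE, edgeR adjusted p = 0.0375). PtXaAlbH.08G098800.v5.1 was higher by 2.26 ± 0.66 (edgeR adjusted p = 0.0457), and PtXaAlbH.10G102000.v5.1 was at -3.26 ± 0.77 (edgeR adjusted p = 0.0202), both with TEML1 and TEML2_1ox libraries mixed in the group compared. PtXaAlbH.19G011300.v5.1 was higher by 1.07 ± 0.31 (edgeR adjusted p = 0.0452) and PtXaAlbH.04G069800.v5.1 by 0.36 ± 0.09 (edgeR adjusted p = 0.0222).

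In 54 groups of values checked for a single library far from the rest, 5 had one, where chance gives about 1 in 20. The values were checked both with and without TEML2_2ox, so the groups overlap. The count of 5 can therefore not be set against that rate. For PtXaAlbH.14G014600.v5.1 at CH2, TEML1_2ox replicate 1 was at 151 CPM, far above the other overexpressor libraries both with and without TEML2_2ox. For PtXaAlbH.04G069800.v5.1 at CH2, TEML1_1ox replicate 1 was at 49.5 CPM, again far above the rest in both groupings. At SD8, TEML1_2ox replicate 2 was at 0.704 CPM for PtXaAlbH.19G011300.v5.1, far below the other libraries without TEML2_2ox.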

How the results depend on the processing

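In the pooled SD8 comparison the count of 1 gene was 0 at an adjusted p under 0.01, 0 in limma-voom with line as random block, 0 with counts summed per line, 0 without TEML1_1ox and 0 without TEML2_2ox. It was 4 with limma-voom, 5 in the fit of both harvests, 103 with DESeq2 and 508 with lines as separate groups (239 higher and 269 lower), and 0 to 2 with single libraries left out. The count of 0 without TEML2_2ox became 2 in the fit of both harvests, 4 in limma-voom with line as random block, 5 in limma-voom, 14 with lines as separate groups (7 higher and 7 lower) and 156 with DESeq2, and it was 0 to 1 with single libraries left out. Among the 4 lines 3728 genes became 1497 at an adjusted p under 0.01, and 670 to 6562 with a library left out. Among the 3 lines 24 became 5 at that threshold, 77 under the replicate block, and 7 to 783 with a library left out. At CH2 1358 became 171 at an adjusted p under 0.01, 884 with the replicate block, 405 in limma-voom with line as random block, 2584 with DESeq2, 2850 with lines as separate groups, 2602, 870 and 321 without TEML1_1ox, TEML1_2ox and TEML2_2ox, and 14 to 1973 with a library left out. The share of the 100 highest genes differed by 2.625 percentage points without TEML2_2ox (unadjusted exact permutation p = 0.0357, 0.214 adjusted over 6 tests) against 1.606 with it. The causes were not tested.

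The replicate numbers were checked at SD8: of 10 pairs of groups, 1 had deviations correlated over 0.1 (r from -0.28 to 0.23), so the numbers were not taken to pair libraries. With the replicate block the pooled SD8 counts stayed at 1 and 0. RLE scaling and both count filters left the pooled SD8 counts at 1 and 0, and no gene named from a comparison with WT changed direction in that comparison under the alternatives run. Depth limits genes of low count most. Pooling takes 8 libraries as independent where there are 4 lines. The fit with lines as separate groups takes its error from replicates within lines, so differences between lines do not enter that error.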
